A study of Homo sapiens with 24 samples.

Results

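The comparison described here is the response to the PTDSS1 inhibitor DS07551382 in HCT116 cells that lack the second phosphatidylserine synthase, PTDSS2. HCT116 is an established human colon cancer line. Its knockout cells came from 1 clone, HCT116 PTDSS2-KO#3, and received 0.1 µM inhibitor or the vehicle DMSO for 24 h, in 3 libraries per group. The 6 libraries were selected by their labels, out of 24 in the series, and all 13164 genes that passed the expression filter were members. Vehicle and inhibitor cells shared the same knockout. HCT116 parent cells (genotype wild type), with the same 2 treatments, and the knockout of the melanoma line A375 (PTDSS2-KO#54, also 1 clone, with the same dose and time) served only to show where the response differed. Whether the 3 libraries of a group came from separate cultures is not stated, and the p-values rest only on how much those libraries differ, which could be technical.

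Phosphatidylserine is an acidic phospholipid of the inner leaflet of the plasma membrane. It is made in the endoplasmic reticulum by PTDSS1, which exchanges the head group of phosphatidylcholine for serine, and by PTDSS2, which uses phosphatidylethanolamine. Mitochondrial PISD decarboxylates phosphatidylserine to phosphatidylethanolamine, and many signalling proteins bind membranes through phosphatidylserine. A cell without PTDSS2 depends on PTDSS1 for this lipid.

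PTDSS2 RNA, in CPM (the count scaled to the library's total), was 5.46, 6.42 and 7.91 in the 3 vehicle libraries and 7.19, 4.87 and 5.07 in the 3 inhibitor libraries of the knockout. Parent libraries held 33.1 to 39.4 CPM, so all 6 knockout libraries lay below all 6 parent libraries. Within the knockout the PTDSS2 libraries of both groups overlapped, with a log2 difference of -0.18 ± 0.17 (standard error, SE; edgeR adjusted p = 0.434). PTDSS1, the target of the inhibitor, had 108, 108 and 109 CPM in vehicle and 79.6, 81.2 and 76.4 CPM with inhibitor. Every inhibitor library was lower, and PTDSS1 fell by 0.45 ± 0.05 on the log2 scale (edgeR adjusted p = 1.1e-11). PISD rose from 52.8, 52.96 and 52.2 CPM to 62.5, 68.1 and 62.3 CPM, a log2 fold change of 0.29 ± 0.06 (edgeR adjusted p = 0.00011).

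Totals were 8829345 to 9108761 counts in vehicle and 6211629 to 7910753 with inhibitor, and 15700 to 15903 genes had a count. The first principal component held 45.2% of the variance and separated the groups without overlap. Epithelial genes were present: 7 of 24 colon markers reached 5 CPM in every library, among them EPCAM, KRT8, KRT18 and KRT19. Several differentiated colon markers were listed at 0 in all 6 libraries, including CDX1, CEACAM5, FABP1 and TFF3. The colon markers summed to at most 4341 CPM in vehicle and to 3633 to 3721 CPM with inhibitor, and the groups did not overlap. This sum is mostly keratin RNA, and members went both ways: of 8 tested 4 fell, KRT8, KRT18 and KRT19 among them, and 3 rose, EPCAM, CDH1 and ELF3. The summed level of 14 melanocyte markers was 134 to 146 CPM in vehicle and 165 to 170.5 CPM with inhibitor, with TYR and S100B at 0 in every library. Most of this was MCAM, ERBB3 and CSPG4. Their means were 50.8, 46.9 and 36.8 CPM in vehicle and 45.9, 59.4 and 53.7 CPM with inhibitor. Blood cell markers summed to 3.85 to 4.39 CPM in vehicle and 5.05 to 8.09 CPM with inhibitor, with CD3E and MS4A1 at 0. Fibroblast and endothelial markers summed to 17.1 to 21.85 CPM in vehicle and 26.55 to 27.2 CPM with inhibitor, with CDH5, DCN, LUM and PDGFRA at 0. That sum was mostly COL1A1, with means of 17.8 CPM in vehicle and 23.7 CPM with inhibitor. The part of these markers in the results was not tested. In bulk RNA, fewer cells of a kind and less RNA per cell cannot be told apart.

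The response was broad and mostly small. By edgeR's quasi-likelihood test at an adjusted p under 0.05, 4889 of 13164 genes changed, which is 37.1%. Of the genes tested, 2249 rose (17.1%) and 2640 fell (20.1%). The median absolute log2 fold change over all genes was 0.172. At 2-fold or more there were more rises than falls, with 213 rises (1.62%) and 40 falls (0.304%). Of these, 93 rises and 17 falls had a mean of at least 5 CPM. Lists for the integrated stress response, cholesterol synthesis, fatty acid synthesis and immediate early genes held 112 of the genes tested and 96 of the calls, so 4793 calls lay outside them. Of the 213 large rises 189 lay outside those lists, as did all 40 large falls. The rest of the account concerns genes outside them, unless a list shares a member.

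Direction went with abundance. Genes were divided into 5 bins of equal size by mean CPM over the 6 libraries. In the lowest bin (up to 6.87 CPM) 12.0% rose and 3.27% fell, with a median log2 fold change of 0.188. In the middle bin 18.5% rose and 19.0% fell, and in the highest (above 88.9 CPM) 19.3% rose and 39.7% fell, with a median of -0.06. In the parent the inhibitor gave medians of -0.032 to 0.01 over the same bins. Inhibitor libraries were the shallower ones here. With the counts of all 12 HCT116 libraries thinned to the smallest total, a setting chosen after seeing the data, the lowest bin had 11.2% rises and 2.84% falls, and the highest 18.5% and 36.7%.

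**Figure D1:**
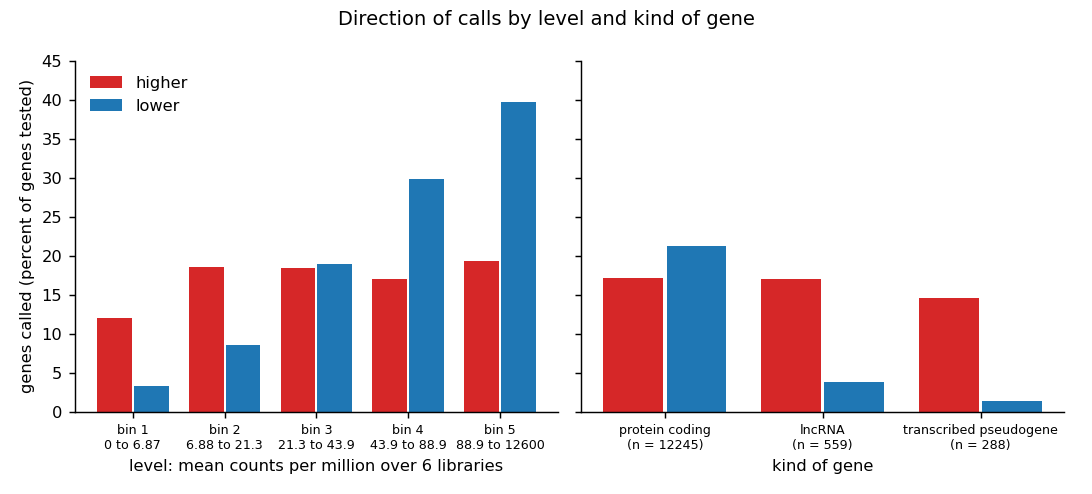
Percent of genes tested that rose (red) or fell (blue) with inhibitor in the HCT116 knockout, by bin of mean level (left, with the CPM range) and by kind of gene (right, with the number tested). Falls grow from 3.27% in the lowest to 39.7% in the highest bin, while rises stay between 12.0% and 19.3%.

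Of 559 long noncoding RNAs tested 95 rose and 21 fell, with a median log2 fold change of 0.248. The 17.0% that rose is near the 17.1% of all genes, and the share that fell was 3.76%. Most were low: 405 lay in the lowest bin, where 10.9% rose and 1.48% fell, against 12.5% and 3.93% of the protein-coding genes in that bin. Over all levels there were 2101 rises and 2611 falls among 12245 protein-coding genes, with a median of -0.01. Of 288 transcribed pseudogenes 42 rose and 4 fell, but reads of a pseudogene can come from its parent gene, so these are uncertain. NEAT1, the RNA scaffold of nuclear paraspeckles, had 339, 292 and 361 CPM in vehicle and 692, 857 and 864 CPM with inhibitor (log2 fold change 1.28 ± 0.13, edgeR adjusted p = 7.4e-05). MALAT1, another RNA retained in the nucleus, had 383, 345 and 412 CPM and then 550, 779 and 740 CPM (0.86 ± 0.15, edgeR adjusted p = 0.00183). Both were named after their values were seen, and the first inhibitor library was the lowest of its group for both. UCA1, a noncoding RNA first described in bladder cancer, went the other way, from 65.2, 66.7 and 70.4 CPM to 30.03, 31.2 and 32.2 CPM, and fell by 1.12 ± 0.07 on the log2 scale (edgeR adjusted p = 6.4e-22). Strand was not stated for the counting, so reads of overlapping genes cannot be told apart.

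Among single genes the largest rises included enzymes and proteins that act on membrane lipids. PLPP1, a phosphatase that removes the phosphate of phosphatidic acid and lysophosphatidic acid, had 6.44, 8.37 and 6.92 CPM in vehicle and 113, 120 and 113 CPM with inhibitor. The groups lay far apart, with a log2 fold change of 3.99 ± 0.09 (edgeR adjusted p = 2.19e-47). Its relatives moved far less: PLPP2 had 91.0, 99.5 and 87.2 CPM in vehicle and 75.2, 76.1 and 77.2 CPM with inhibitor, and fell by 0.28 ± 0.06 on the log2 scale (edgeR adjusted p = 2.87e-05). LPIN1, a phosphatidic acid phosphatase, rose by a log2 fold change of 0.51 ± 0.10 (edgeR adjusted p = 3.44e-05), and LPAR5, a receptor for lysophosphatidic acid, by 0.77 ± 0.18 (edgeR adjusted p = 0.00045). Of 17 lipid phosphate phosphatases and lysophospholipid receptors tested 7 rose (41.2%) and 3 fell (17.6%), with a median of 0.149. DESeq2 called 3 and 1 of them. Over all genes 17.1% rose and 20.1% fell. In TPM, the deposited unit that allows for gene length and sums to the same total in each library, the list took 0.0326% ± 0.000691 in vehicle and 0.0448% ± 0.00157 with inhibitor (SD, n = 3), with no overlap. Its 17 tested members summed to 315 to 337 CPM in vehicle and 428 to 441 CPM with inhibitor. PLPP1 alone had means of 7.24 and 115 CPM, so it made up nearly all of that gain.

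PIP5KL1, an inactive relative of the phosphatidylinositol phosphate kinases, rose from 4.04, 4.24 and 5.38 CPM to 15.3, 18.3 and 23.5 CPM (log2 fold change 2.05 ± 0.19, edgeR adjusted p = 7.12e-12). ATP10D, a P4-ATPase lipid flippase, fell from 31.5, 32.9 and 32.0 CPM to 12.6, 12.5 and 13.8 CPM, by 1.31 ± 0.11 on the log2 scale (edgeR adjusted p = 8.68e-17). NMT2, which attaches myristate to proteins, fell from 53.2, 57.1 and 55.5 CPM to 24.5, 27.0 and 25.5 CPM, by 1.11 ± 0.08 (edgeR adjusted p = 3.08e-20). In all 3 genes the groups did not overlap, which the selection of the largest changes required. PNPLA8, a phospholipase of peroxisomes and mitochondria, rose by a log2 fold change of 1.12 ± 0.08 (edgeR adjusted p = 3.48e-18), and LCLAT1, an acyltransferase for lysocardiolipin, by 0.63 ± 0.06 (edgeR adjusted p = 7.58e-14). Against 17.1% rises and 20.1% falls over all genes, the lipid lists held calls in both directions. Of 31 phospholipases and lysophospholipid acyltransferases 8 rose and 5 fell (median 0.04), of 40 phosphoinositide kinases and phosphatases 6 rose and 8 fell (median -0.05), and of 34 lipid transfer genes 9 rose and 8 fell (median 0.02).

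The other large rises were of signalling, secretory and cytoskeletal genes. LBH, a transcription cofactor, was nearly silent in vehicle, with 1, 3 and 3 counts, and had 222, 178 and 154 counts with inhibitor. The ratio of summed counts, scaled to library totals, was 103 (exact 95% interval 49.8 to 258, counting error only). LBH and the antisense gene UNC5B-AS1, named because so few met this criterion, were 2 of 3 genes that went from under 1 CPM in every vehicle library to at least 3 CPM in every inhibitor library, and the third had no symbol. UNC5B-AS1 held 0.983, 0.802 and 0.989 CPM and then 3.28, 4.11 and 4.28 CPM. In the other direction there were 0 genes.

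SOCS1, a feedback inhibitor of JAK kinases, had 1.97, 1.38 and 2.09 CPM in vehicle and 19.3, 15.1 and 15.9 CPM with inhibitor (log2 fold change 3.20 ± 0.22, edgeR adjusted p = 3.32e-20). TSC22D3, known as the glucocorticoid-induced leucine zipper gene, rose from 6.12, 4.70 and 4.72 CPM to 30.03, 27.7 and 29.97 CPM (2.49 ± 0.13, edgeR adjusted p = 2.68e-25). FGFBP1, a secreted carrier of fibroblast growth factors, went from 3.82, 4.24 and 2.86 CPM to 27.8, 25.3 and 27.1 CPM (2.87 ± 0.16, edgeR adjusted p = 3.79e-25). MAMDC2, a gene for a secreted proteoglycan, had 8.41, 8.02 and 8.13 CPM and then 55.3, 60.5 and 59.6 CPM (2.83 ± 0.10, edgeR adjusted p = 1.03e-34). No vehicle library of these 4 genes reached an inhibitor library, which the selection of the largest changes required.

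Among genes that were already well expressed, IGFBP2, a carrier of insulin-like growth factors, rose from 155, 153 and 149 CPM to 528, 500 and 479 CPM (log2 fold change 1.73 ± 0.04, edgeR adjusted p = 4.22e-47). MAN1A1, a Golgi mannosidase that trims N-glycans, rose from 90.2, 83.3 and 89.8 CPM to 356, 352 and 328 CPM (1.98 ± 0.04, edgeR adjusted p = 2.19e-47). TRIM2, a ubiquitin ligase, rose from 53.4, 55.1 and 53.7 CPM to 191, 210 and 191 CPM (1.87 ± 0.05, edgeR adjusted p = 4.2e-41). The remaining members of the 15 largest rises were PTPRM, a receptor tyrosine phosphatase, CORO6, a coronin, SYNE3, a nesprin of the nuclear envelope, BFSP1, a lens filament protein, and PDLIM3, a protein of actin and Z-line structures. Their log2 fold changes ran from 1.64 ± 0.16 for PDLIM3 to 1.97 ± 0.12 for PTPRM.

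**Figure D2:**
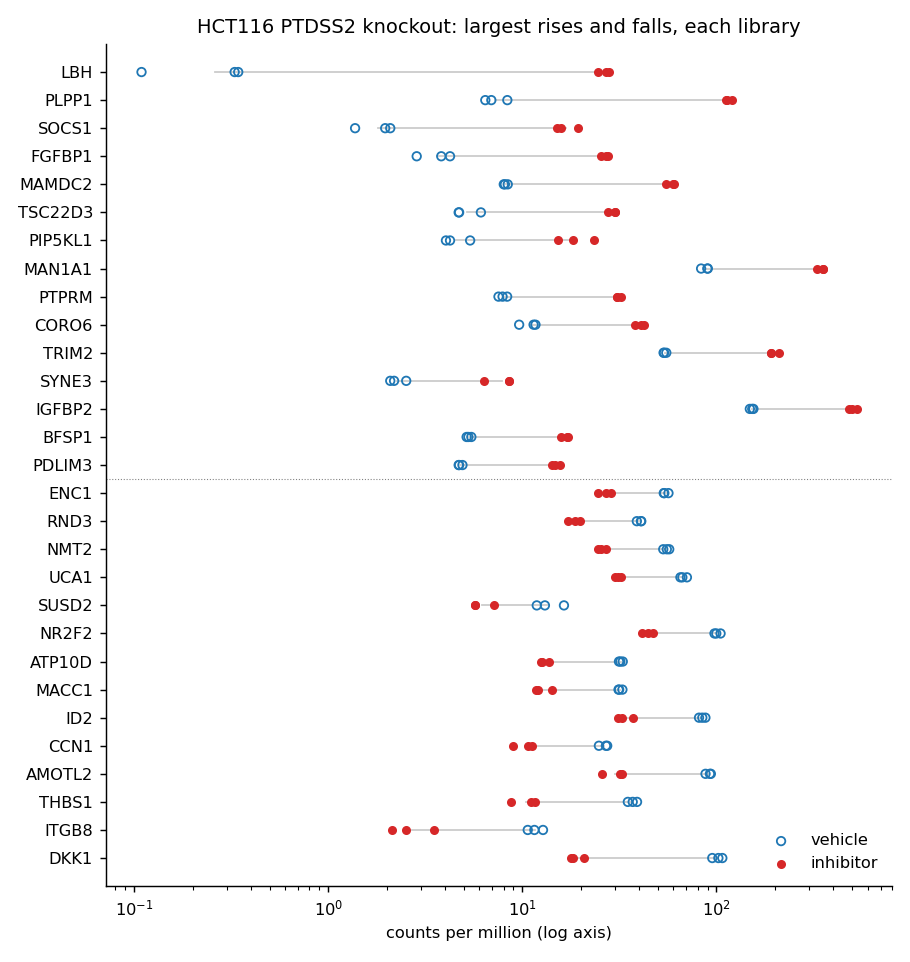
CPM in each library (log axis) of the 15 genes with the largest rises (above the dotted line) and 14 of the 15 with the largest falls outside the stress and sterol lists, for vehicle (open circles) and inhibitor (filled circles) in the HCT116 knockout, with a grey line between group means. The groups do not overlap in any of the 29 genes, which the selection required, and LBH starts lowest, at 0.11 to 0.34 CPM.

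The largest falls included secreted, matrix and adhesion genes. DKK1, a secreted inhibitor of Wnt receptors, had 95.1, 107 and 102 CPM in vehicle and 18.2, 20.7 and 17.8 CPM with inhibitor, and fell by 2.43 ± 0.07 on the log2 scale (edgeR adjusted p = 4.74e-41). THBS1, or thrombospondin 1, a matrix glycoprotein, fell from 34.9, 39.0 and 37.0 CPM to 11.6, 11.1 and 8.72 CPM, by 1.81 ± 0.11 (edgeR adjusted p = 1.55e-21). CCN1, a matricellular protein and known target of YAP, fell from 24.8, 26.9 and 27.4 CPM to 8.96, 10.7 and 11.3 CPM, by 1.37 ± 0.11 (edgeR adjusted p = 1.06e-16). AMOTL2, an angiomotin that binds YAP and is also a known target of it, fell from 87.8, 93.5 and 92.5 CPM to 25.7, 32.6 and 31.7 CPM, by 1.62 ± 0.07 (edgeR adjusted p = 1.11e-30). In each of these the highest inhibitor library was below the lowest vehicle library, as the selection required.

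ITGB8, an integrin subunit that activates latent TGF-beta, fell from 12.8, 10.7 and 11.5 CPM to 2.52, 2.13 and 3.49 CPM, by 2.11 ± 0.24 on the log2 scale (edgeR adjusted p = 7.51e-08). Of 22 integrins and integrin-binding proteins tested 7 fell (31.8%) and 3 rose (13.6%), against 20.1% and 17.1% of all genes. The others that fell include ITGA6 (log2 fold change -0.27 ± 0.04, edgeR adjusted p = 6.14e-08) and the focal adhesion adaptor PXN (-0.43 ± 0.04, edgeR adjusted p = 4.7e-15), while ITGA5, the fibronectin receptor subunit, rose by 0.46 ± 0.06 (edgeR adjusted p = 9.7e-10). COL12A1, a collagen that decorates fibrils, fell from 165, 160 and 166 CPM to 99.7, 97.9 and 93.2 CPM (-0.75 ± 0.05, edgeR adjusted p = 1.33e-21), and COL6A1 rose by 0.45 ± 0.05 (edgeR adjusted p = 1.52e-11). As a list, 36 matrix genes held 11 rises (30.6%) and 6 falls (16.7%), with a median of 0.098. NR2F2, an orphan nuclear receptor, MACC1, a regulator of MET, RND3, an atypical small GTPase, SUSD2 and ENC1 were also among the large falls, with UCA1, NMT2, ATP10D and ID2, at log2 fold changes from -1.34 ± 0.10 for MACC1 to -1.04 ± 0.07 for ENC1.

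Wnt feedback and target genes fell more often than they rose. Of 17 tested 8 fell (47.1%) and 3 rose (17.6%), with a median of -0.241. Of all genes 20.1% fell and 17.1% rose. Beside DKK1, the cyclin CCND1 fell from 1068, 1112 and 1050.0 CPM to 689, 680.1 and 678 CPM, by 0.66 ± 0.03 on the log2 scale (edgeR adjusted p = 3.36e-29), and MYC from 288, 293 and 275 CPM to 218, 226 and 207 CPM, by 0.40 ± 0.04 (edgeR adjusted p = 2.2e-14). NOTUM, a secreted enzyme that inactivates Wnt ligands, went against the list, from 5.35, 4.93 and 7.14 CPM to 16.8, 14.8 and 16.5 CPM (1.46 ± 0.15, edgeR adjusted p = 2.52e-12), and was named after its values were seen. Of the 23 Wnt ligands and receptors tested 5 fell (21.7%, near the 20.1% of all genes) and 1 rose (4.35%). WNT16 fell from 82.5, 83.0 and 81.2 CPM to 45.2, 42.6 and 49.0 CPM, by 0.85 ± 0.06 (edgeR adjusted p = 3.17e-20).

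Cyclins of the G1 phase were among the falls. CCND3 fell by 0.68 ± 0.08 on the log2 scale (edgeR adjusted p = 8.15e-11) and CCNE1 by 0.59 ± 0.07 (edgeR adjusted p = 6.54e-10). Of 34 MYC network genes, G1 cyclins and their inhibitors 10 fell (29.4%) and 7 rose (20.6%), with a median of -0.05, against 20.1% and 17.1% of all genes. The 7 that rose were, as seen after the values were known, the cyclin-dependent kinase inhibitors CDKN1A, CDKN1B and CDKN2A and the MYC antagonists MXI1, MNT, MXD1 and MXD4, at log2 fold changes from 0.19 to 0.84. Summed, the list took 0.227% ± 0.00288 of TPM in vehicle and 0.2% ± 0.000752 with inhibitor (SD, n = 3).

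The TGF-beta and BMP pathway moved both ways, with 10 rises (26.3%) and 11 falls (28.9%) among 38 genes, against 17.1% and 20.1% of all genes. Its median of -0.02 changed sign when genes under a mean of 5 CPM were left out. BMP4, a ligand, fell from 140, 151 and 140 CPM to 86.6, 85.1 and 82.9 CPM (log2 fold change -0.75 ± 0.05, edgeR adjusted p = 1.32e-21). ID2, an inhibitor of helix-loop-helix factors and a textbook BMP target, fell from 84.5, 87.7 and 81.3 CPM to 31.0, 32.6 and 36.9 CPM (-1.34 ± 0.07, edgeR adjusted p = 1.59e-27). Its relatives, named after their values were seen, went both ways. ID3 fell (-0.38 ± 0.07, edgeR adjusted p = 1.16e-05), but the more abundant ID1 rose (0.34 ± 0.04, edgeR adjusted p = 9.22e-12), from a mean of 197 to 250 CPM. LTBP3 and LTBP4, which hold latent TGF-beta in the matrix, rose by 0.52 ± 0.04 (edgeR adjusted p = 2.24e-16) and 0.86 ± 0.05 (edgeR adjusted p = 1.13e-17). Of 32 extracellular proteases and inhibitors tested 13 rose (40.6%) and 3 fell (9.38%), with a median of 0.138. Among them PLAU, the plasminogen activator urokinase, rose by 0.45 ± 0.06 (edgeR adjusted p = 5.2e-10), and ADAM10, a sheddase, by 0.53 ± 0.04 (edgeR adjusted p = 1.76e-19). One of the 13 called rises, TIMP3, was at 0 in 5 of the 6 libraries and had 0.634 CPM in the other.

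Ligands of the EGF receptor went both ways. AREG, encoding amphiregulin, had 172, 188 and 169 CPM in vehicle and 291, 291 and 297 CPM with inhibitor (log2 fold change 0.73 ± 0.04, edgeR adjusted p = 4.03e-26). EREG, encoding epiregulin, had 755, 703 and 758 CPM and then 1011, 1028 and 990.4 CPM (0.45 ± 0.03, edgeR adjusted p = 1.98e-20). BTC, encoding betacellulin and named after its values were seen, was low, with 2.29, 3.10 and 2.42 CPM and then 5.55, 5.18 and 6.34 CPM (1.12 ± 0.25, edgeR adjusted p = 0.00018). TGFA, another ligand, fell from 80.8, 75.0 and 77.1 CPM to 57.2, 57.3 and 60.1 CPM, by 0.42 ± 0.06 (edgeR adjusted p = 1.65e-08). ERRFI1, a feedback inhibitor of the receptor, rose by 0.49 ± 0.03 (edgeR adjusted p = 1.22e-20). Of 18 genes in this family 8 rose (44.4%) and 2 fell (11.1%), against 17.1% and 20.1% of all genes, with a median of 0.159. DUSP4, a nuclear phosphatase of MAP kinases, rose from 115, 121 and 117 CPM to 289, 289 and 306 CPM (1.33 ± 0.04, edgeR adjusted p = 5.42e-40), whereas DUSP7 fell by 0.77 ± 0.09 (edgeR adjusted p = 3.71e-11). Over 23 MAPK feedback genes 8 rose (34.8%) and 4 fell (17.4%). Among secreted growth factors LIF rose from 74.5, 65.2 and 72.6 CPM to 158, 148 and 153 CPM (1.11 ± 0.05, edgeR adjusted p = 1.99e-28), and BDNF fell from 68.8, 66.7 and 65.5 CPM to 33.1, 33.0 and 36.5 CPM (-0.97 ± 0.07, edgeR adjusted p = 1.66e-20).

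Among transcription factors the KLF and SP family held 10 rises (52.6%) and 1 fall (5.26%) among 19 genes, with a median of 0.161. Over all genes 17.1% rose and 20.1% fell. KLF9 had 6.99, 7.80 and 7.69 CPM and then 19.8, 19.2 and 18.9 CPM (log2 fold change 1.36 ± 0.13, edgeR adjusted p = 1.62e-13), and KLF2 had 28.7, 24.2 and 24.0 CPM and then 49.5, 49.2 and 42.5 CPM (0.88 ± 0.08, edgeR adjusted p = 2.2e-14). KLF6 and KLF10 rose by 0.45 ± 0.05 and 0.48 ± 0.05 (edgeR adjusted p = 4.58e-11 and 9.22e-12). ZNF385A, a zinc finger protein, rose from 38.6, 33.4 and 32.6 CPM to 102, 104 and 97.7 CPM (1.53 ± 0.06, edgeR adjusted p = 6.54e-32), but of 374 genes named ZNF 43 rose (11.5%) and 25 fell (6.68%), with a median of 0.04. BHLHE40, a repressor of the circadian clock, rose from 25.2, 23.7 and 19.1 CPM to 57.4, 53.5 and 58.2 CPM (1.31 ± 0.08, edgeR adjusted p = 4.48e-22). Of 26 HOX genes tested 5 rose and 0 fell, so the share that rose, 19.2%, was near the 17.1% of all genes. All 5 lie in the HOXB cluster, of which 9 genes were tested. HOXB9 had 27.3, 30.04 and 25.3 CPM and then 51.4, 49.0 and 46.9 CPM (0.84 ± 0.08, edgeR adjusted p = 2.05e-14). HOXB3 and HOXB8 rose by 0.48 ± 0.11 and 0.34 ± 0.06 (edgeR adjusted p = 0.000459 and 1.41e-05). HOXB4 (0.25 ± 0.09, edgeR adjusted p = 0.0232) lost its call with DESeq2 and when 1 of 3 libraries was left out (vehicle replicate 1, inhibitor replicate 1 or inhibitor replicate 2), and HOXB2, named after its values were seen, overlapped between groups at 0.765 to 3.33 CPM. The 10 HOXA genes held 0 calls, with a median of -0.06.

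Ribosomal protein RNAs of the cytosol and of mitochondria leaned in opposite directions, by small steps. Of 81 cytosolic ribosomal protein genes 27 rose (33.3%), 3 fell and 51 were not called, with a median of 0.055. Rises made up 17.1% of all genes and 19.3% of the highest bin of level. The summed TPM of the cytosolic genes was 21.7% ± 0.359 in vehicle and 22.7% ± 0.248 with inhibitor (SD, n = 3). Their summed CPM overlapped, at 72960 to 77940 in vehicle and 77630 to 80890 with inhibitor. RPL3 went from 2251, 2339 and 2241 CPM to 2765, 2689 and 2663 CPM, a log2 fold change of 0.25 ± 0.03 (edgeR adjusted p = 4.04e-11). Many ribosomal protein genes have processed pseudogenes that can take or lend reads. Mitochondrial ribosomal proteins went the other way, with 42 of 77 falling and 0 rising, a median of -0.166 and a summed TPM of 1.05% ± 0.00518 in vehicle and 0.919% ± 0.00606 with inhibitor. MRPL12 fell from 214, 236 and 221 CPM to 190, 179 and 179 CPM (-0.29 ± 0.04, edgeR adjusted p = 8e-09), and MRPL36 by 0.54 ± 0.07 (edgeR adjusted p = 1.03e-08). Since 39.7% of the most abundant bin of genes fell, the share of 54.5% is to be read against that as well as against 20.1% over all genes.

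The enzymes that charge tRNAs also differed by compartment in their counts. Of 24 genes listed as cytosolic aminoacyl-tRNA synthetases 12 rose (50%) and 7 fell (29.2%), with a median of 0.092. This list includes EEF1E1, which fell but is not itself such an enzyme. It also holds KARS1 and GARS1, which serve mitochondria as well, so the split by compartment is not clean. Of 17 mitochondrial ones 2 rose (11.8%) and 7 fell (41.2%), with a median of -0.148. Over all genes 17.1% rose and 20.1% fell. CARS1, for cysteine, rose from 87.0, 87.6 and 86.7 CPM to 175, 176 and 175 CPM (log2 fold change 1.01 ± 0.05, edgeR adjusted p = 1.32e-28), and AARS1, for alanine, went from 244, 257 and 245 CPM to 450, 450 and 440 CPM (0.84 ± 0.03, edgeR adjusted p = 6.93e-32). The cytosolic genes that fell, with log2 fold changes from -0.57 to -0.15, included both subunits of the phenylalanine enzyme, FARSA (-0.25 ± 0.04) and FARSB (-0.30 ± 0.05), and KARS1 (-0.21 ± 0.04), named after their values were seen. In mitochondria MARS2 fell by 0.47 ± 0.09 (edgeR adjusted p = 8.93e-06). Small nucleolar RNA host genes, noncoding transcripts whose introns carry snoRNAs, rose in 7 of 23 cases (30.4%) and fell in 3 (13%). GAS5 had 118, 117 and 118 CPM in vehicle and 181, 175 and 182 CPM with inhibitor (0.60 ± 0.04, edgeR adjusted p = 5.02e-19). Translation factors fell in 25 of 52 cases (48.1%) and rose in 10 (19.2%), with a median of -0.10. In the highest bin of level 39.7% of genes fell and 19.3% rose. The summed TPM of the translation factors went up, from 2.97% ± 0.0157 in vehicle to 3.08% ± 0.0199 with inhibitor (SD, n = 3), without overlap. EIF4G1, the initiation scaffold, fell by 0.30 ± 0.03 (edgeR adjusted p = 1.45e-12), and PDCD4 and EIF4EBP1, both repressors of initiation, rose by 0.92 ± 0.08 (edgeR adjusted p = 7.77e-14) and 0.52 ± 0.06 (edgeR adjusted p = 1.19e-11).

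Genes for nuclear import, protein folding, splicing and protein degradation fell more often than they rose, by small steps. Their shares are to be read against falls of 20.1% over all genes and 39.7% in the highest bin of level. Of 54 nucleoporins and importins 39 fell and 1 rose (median -0.159). KPNB1, importin beta, fell from 889, 900 and 896 CPM to 688, 698 and 664 CPM (log2 fold change -0.39 ± 0.03, edgeR adjusted p = 3.05e-17), and KPNA3 from 150, 161 and 166 CPM to 111, 111 and 111 CPM (-0.52 ± 0.05, edgeR adjusted p = 2.26e-15). Of 16 subunits of the chaperonin TRiC and of prefoldin 11 fell and 1 rose (median -0.171), with TCP1 at -0.34 ± 0.03 (edgeR adjusted p = 3.61e-14). Of 45 proteasome genes 25 fell and 0 rose (median -0.109), with PSME3 at -0.34 ± 0.04 (edgeR adjusted p = 3.46e-12). Of 43 genes for import into mitochondria and for mitochondrial proteases 23 fell and 2 rose (median -0.163), with TOMM40, the outer membrane channel, at -0.43 ± 0.04 (edgeR adjusted p = 5.32e-11). Of 50 snRNP and SR splicing proteins 27 fell and 3 rose (median -0.136), with SRSF2 at -0.32 ± 0.03 (edgeR adjusted p = 2.54e-13). Of 36 subunits of RNA polymerases I and III 16 fell (44.4%, near that of the highest bin) and 2 rose (median -0.116), and POLR1G had the largest named change, from 78.7, 79.8 and 84.5 CPM to 43.0, 42.8 and 44.2 CPM (-0.90 ± 0.06, edgeR adjusted p = 4.43e-20). The summed TPM of each of these 6 lists was lower in all 3 inhibitor libraries than in any vehicle library.

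**Figure D3:**
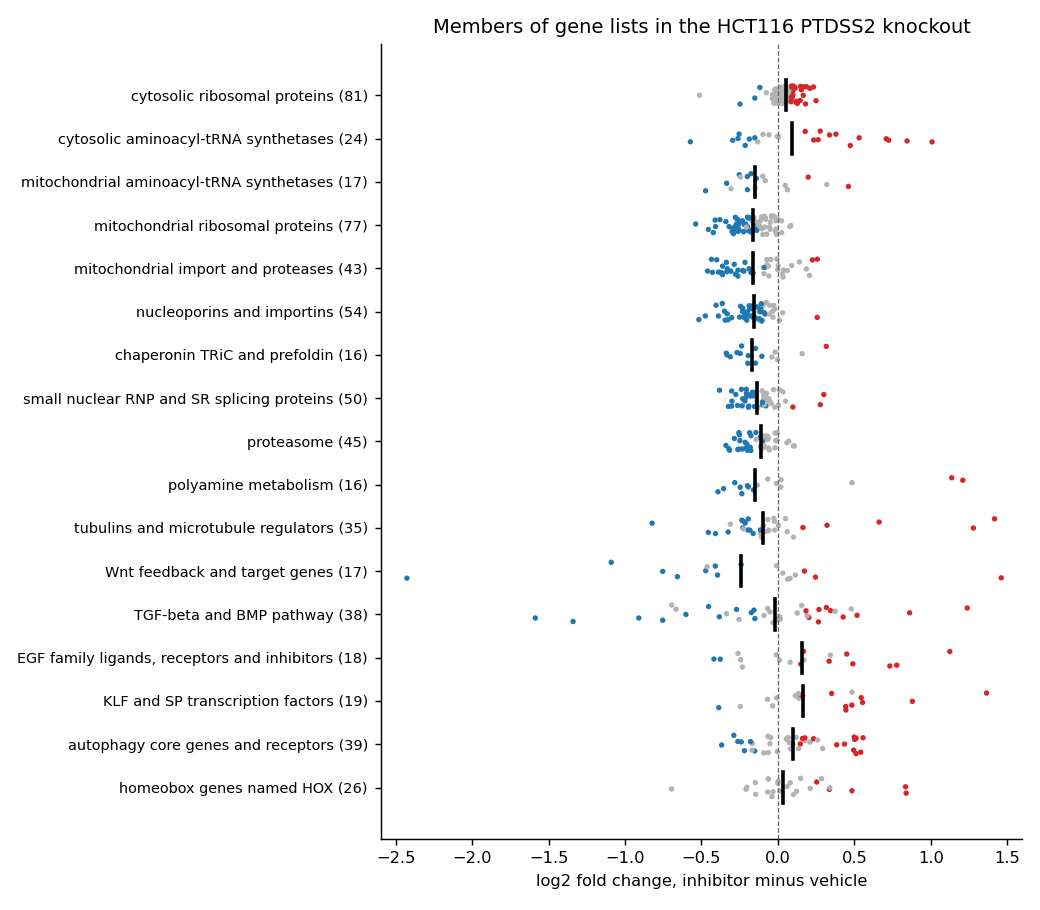
Log2 fold change, inhibitor minus vehicle in the HCT116 knockout, of every tested member of 17 gene lists (number tested in parentheses). Red and blue points rose or fell by edgeR at adjusted p under 0.05, grey points were not called, black bars are list medians and the dashed line is the median of all genes. The medians of ribosomal proteins of the cytosol and of mitochondria lie on opposite sides of it, at 0.055 and -0.166.

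Metabolic lists were less uniform. Over all genes 17.1% rose and 20.1% fell, and 39.7% fell in the highest bin of level. In polyamine metabolism the biosynthetic genes SRM and SMS fell by 0.36 ± 0.05 and 0.28 ± 0.04 on the log2 scale (edgeR adjusted p = 1.09e-08 and 3.18e-08). The catabolic genes SAT1 and SMOX rose: SAT1 from 129, 131 and 143 CPM to 296, 274 and 317 CPM (1.14 ± 0.05, edgeR adjusted p = 2.27e-24), and SMOX from 20.8, 20.9 and 26.6 CPM to 57.5, 50.3 and 49.5 CPM (1.21 ± 0.09, edgeR adjusted p = 2.67e-18). These were the only 2 rises (12.5%) among 16 polyamine genes, of which 8 fell (50%). Of 34 purine and pyrimidine synthesis genes 17 fell (50%) and 3 rose (8.82%, median -0.103), with UMPS at -0.41 ± 0.06 (edgeR adjusted p = 2.01e-08). Of 79 nuclear-encoded respiratory chain subunits 26 fell (32.9%) and 4 rose (5.06%), with a median of -0.07. SLC2A1, the glucose transporter GLUT1, fell from 159, 169 and 158 CPM to 100, 94.3 and 87.2 CPM (-0.78 ± 0.05, edgeR adjusted p = 3.37e-23), while NDRG1, a gene also induced by hypoxia, rose from 55.6, 56.3 and 58.1 CPM to 129, 135 and 118 CPM (1.17 ± 0.06, edgeR adjusted p = 2.02e-28). Among 34 glycolysis and hypoxia genes 11 fell (32.4%) and 7 rose (20.6%). ETFB, an electron carrier of fatty acid oxidation, rose by 0.68 ± 0.06 (edgeR adjusted p = 2.22e-16).

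Cytoskeletal genes changed in both directions. Of 35 tubulins and microtubule regulators 13 fell (37.1%) and 5 rose (14.3%), against 20.1% and 17.1% of all genes. In the highest bin of level 39.7% fell and 19.3% rose, so falls among abundant genes were as frequent as in this list. TUBA1A rose from 20.6, 20.6 and 24.6 CPM to 52.7, 51.9 and 55.5 CPM (log2 fold change 1.28 ± 0.08, edgeR adjusted p = 6.58e-22) and the microtubule-associated MAP1B from 18.8, 20.4 and 16.9 CPM to 49.6, 55.0 and 45.2 CPM (1.42 ± 0.09, edgeR adjusted p = 1.92e-21). TUBA4A and TUBB4B fell by 0.82 ± 0.07 (edgeR adjusted p = 6.97e-16) and 0.46 ± 0.03 (edgeR adjusted p = 1.11e-19). Tubulin genes are close copies of each other, so their counts can be split and are uncertain. The epithelial keratin KRT18 fell from 678, 744 and 676 CPM to 528, 536 and 516 CPM (-0.41 ± 0.03, edgeR adjusted p = 4.07e-17). LMNA, which encodes the A-type lamins, rose from 542, 547 and 526 CPM to 885, 863 and 845 CPM (0.68 ± 0.03, edgeR adjusted p = 4.81e-29), and PLEC, the cytolinker plectin, rose by 0.73 ± 0.04 (edgeR adjusted p = 6.12e-19). ARHGAP29, a GTPase-activating protein, fell from 691, 683 and 709 CPM to 398, 396 and 404 CPM (-0.80 ± 0.03, edgeR adjusted p = 9.25e-33), and RHOB rose by 0.73 ± 0.04 (edgeR adjusted p = 6.05e-24).

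By TPM the 6 largest gains were of the elongation factor EEF1A1 (6591 ± 55.9 to 7838 ± 141 TPM, SD, n = 3), RPS2, PTMA, RPL3, GAPDH and ANXA2. ANXA2, an annexin that binds acidic phospholipids, had the highest fold of them, 0.38 ± 0.03 on the log2 scale (edgeR adjusted p = 9.92e-19). The 6 largest losses were of HSPA8, ACTG1, EZR, HSP90AA1, KRT8 and ACTB. HSPA8, the constitutive cytosolic HSP70, went from 2418 ± 32.0 to 1510.2 ± 19.7 TPM (SD, n = 3), and EZR, ezrin, which links actin to the plasma membrane, from 1461 ± 17.7 to 865 ± 18.5 TPM, falling by 0.76 ± 0.03 on the log2 scale (edgeR adjusted p = 2.85e-32). Actins, keratin 8 and GAPDH also have processed pseudogenes.

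Of 39 autophagy genes 13 rose (33.3%) and 7 fell (17.9%), against 17.1% and 20.1% of all genes, with a median of 0.098. The rises included the receptors SQSTM1 (325, 345 and 320 CPM, then 489.7, 473 and 478 CPM, log2 fold change 0.54 ± 0.03, edgeR adjusted p = 3.76e-22) and CALCOCO2 (0.56 ± 0.06, edgeR adjusted p = 9.72e-13) and the ATG8 gene MAP1LC3B (0.51 ± 0.05, edgeR adjusted p = 3.73e-12), and ATG12, of the conjugation machinery, fell by 0.29 ± 0.04 (edgeR adjusted p = 8.94e-10). In the BCL2 family BCL2L1, which encodes the survival protein BCL-XL, fell from 268, 287 and 276 CPM to 171, 167 and 164 CPM (-0.72 ± 0.04, edgeR adjusted p = 2.08e-25). Members that promote cell death went both ways. BBC3 (PUMA) and BCL2L11 (BIM) rose, BBC3 from 17.4, 20.9 and 20.3 CPM to 34.2, 37.9 and 36.3 CPM (0.89 ± 0.10, edgeR adjusted p = 7.33e-12) and BCL2L11 by 0.49 ± 0.08 (edgeR adjusted p = 1.48e-06). BIK, BAK1 and BID, also promoters of cell death and named after their values were seen, fell by 0.67 ± 0.13, 0.38 ± 0.08 and 0.34 ± 0.07 on the log2 scale (edgeR adjusted p = 3.67e-05, 0.000195 and 5.14e-05). Of 19 family members 7 rose (36.8%) and 5 fell (26.3%), and the median of 0.063 changed sign under 4 alternatives. Regulators of mTORC1 held 1 rise (3.03%) and 2 falls (6.06%) among 33 genes, both below the shares of all genes.

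Promoter sequence was looked up for the motif that C/EBP-ATF dimers of the stress response bind, TGATGNAA on either strand, in RefSeq windows from 250 bases before to 50 after the start (GRCh38.p14; the counts use hg19). Of the 13164 genes tested 10506 had a window and 1.59% of these held the motif. Among 42 stress response genes with a window 11 held it (26.2%), and among 140 genes outside the known lists with a call and at least a 2-fold rise 4 did (2.86%). Among 29 large falls 0 did. The 4 were TRIM2, IL20RB, IL21R and HRK. They are printed after 2 stress response genes, ASNS and CHAC1, to set the matches side by side. Each line is 60 bases read 5′ to 3′ on the gene's strand, all upstream of the start, with the match in capitals (either orientation).
ASNS (asparagine synthetase, chr7:97872443-97872502, minus strand): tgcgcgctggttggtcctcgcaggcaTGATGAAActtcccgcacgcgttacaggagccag
CHAC1 (glutathione degradation, chr15:40953236-40953295, plus strand): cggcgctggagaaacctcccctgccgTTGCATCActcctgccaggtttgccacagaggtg
TRIM2 (chr4:153151944-153152003, plus strand): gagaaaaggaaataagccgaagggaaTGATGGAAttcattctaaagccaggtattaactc
IL20RB (interleukin 20 receptor subunit, chr3:136957881-136957940, plus strand): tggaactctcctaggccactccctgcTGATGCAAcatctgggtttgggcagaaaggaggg
IL21R (interleukin 21 receptor, chr16:27427127-27427186, plus strand): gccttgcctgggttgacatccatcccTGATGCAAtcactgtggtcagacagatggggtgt
HRK (a BH3-only protein of the BCL2 family, chr12:116881483-116881542, minus strand): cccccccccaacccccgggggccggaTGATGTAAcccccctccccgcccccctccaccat
The matches begin 193 bases before the start in TRIM2, 76 in IL20RB, 118 in IL21R and 75 in HRK, against 68 in ASNS and 209 in CHAC1.

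In the libraries ASNS went from 83.8, 89.5 and 85.5 CPM to 304, 317 and 300 CPM, CHAC1 from 1.42, 3.90 and 4.50 CPM to 27.1, 28.9 and 26.5 CPM, and IL20RB from 0.983, 0.917 and 0.989 CPM to 3.15, 2.13 and 2.85 CPM (log2 fold change 1.49 ± 0.37, edgeR adjusted p = 0.000897). IL21R and HRK stayed at or below 3.17 CPM in every library, so TRIM2 was the only one of the 4 above that level.

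The response was set beside that of parent cells, in which edgeR called 0 of the genes (0%), with 530 at an unadjusted p under 0.05. The difference between the knockout and parent responses passed the threshold for 3275 genes (24.9%), 1455 upward (11.1%) and 1820 downward (13.8%), and both effects were estimated in 1 fit. Of the 213 large rises 148 differed from the parent by this test, and of the 40 large falls 28. Of the 30 genes selected for the largest changes 29 did. All these genes were picked by their knockout effect, which this difference contains, so the selection favoured high shares. For these 29 the parent log2 fold changes lay between -0.29 and 0.48. The parent log2 fold change was 0.21 ± 0.15 for PLPP1, -0.17 ± 0.06 for TRIM2, 0.02 ± 0.04 for IGFBP2 and 0.05 ± 0.04 for DKK1, all far smaller than in the knockout.

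A375 knockout cells share no library with the HCT116 comparison. In a fit of all 24 libraries, A375 knockout cells had 4893 of 14637 genes called (33.4%), and 2880 (19.7%) differed between the lines. Of the 15 largest rises in HCT116 only TRIM2 and PLPP1 also rose in A375, TRIM2 by 1.07 ± 0.05 and PLPP1 by 0.36 ± 0.10, and IGFBP2 fell there. For 14 of the 15 the difference between the lines passed the threshold (the background share upward is 8.75%). Of 14 of the 15 largest falls 10 also fell in A375, among them CCN1, THBS1, AMOTL2, NMT2 and UCA1, ITGB8 rose, and 10 differed between the lines (against 19.7% of all genes in either direction). These rises and falls were selected by their HCT116 effect, which the difference between the lines contains. The shares of all genes, which were not selected, are therefore not a like comparison. Level limits these comparisons, since 4 of the 29 genes (CORO6, MACC1, MAMDC2 and SOCS1) were under 1 CPM in every A375 knockout library. LBH, FGFBP1, PIP5KL1, TSC22D3 and ID2 were also low there, at 3.61 CPM or less in every library.

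**Figure D4:**
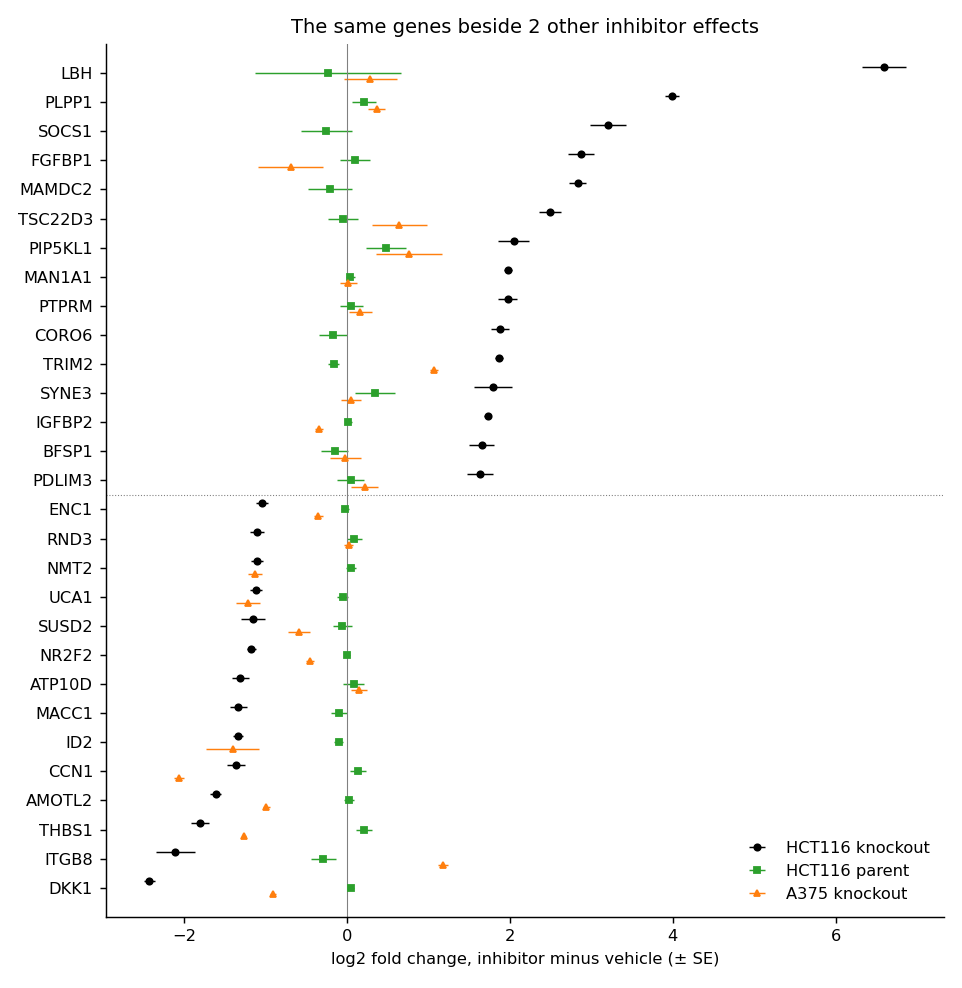
Log2 fold change (inhibitor minus vehicle, bars ± SE) of the 15 largest rises (above the dotted line) and 14 of the 15 largest falls of the HCT116 knockout, in the HCT116 knockout (black circles), the HCT116 parent (green squares) and the A375 knockout (orange triangles; not drawn for the 4 genes under 1 CPM there). For the 29 genes drawn, out of 30 selected, parent values lie between -0.29 and 0.48. A375 values lie below 0 for 10 of the falls and above 0 for ITGB8 (1.18), ATP10D (0.15) and RND3 (0.02).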

How the data were processed

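Per the submitters' processing notes, STAR 2.4.2a, RSEM 1.2.23 and the build hg19 were used, and the authors deposited expected counts and TPM per gene. Of 25343 gene identifiers 25220 matched a RefSeq symbol and 123 did not. Expected counts were rounded and genes filtered with edgeR's filterByExpr (minimum count 10, minimum total 15). Counts were scaled by TMM and fitted over the 12 HCT116 libraries with 1 mean per group (edgeR 4.0.16, R 4.3.3, robust quasi-likelihood F test, two-sided, Benjamini-Hochberg adjusted p under 0.05). A375 effects came from a fit of all 24 libraries. DESeq2 1.42.0 and limma 3.58.1 (voom) were alternatives, and the equal-depth thinning was chosen after seeing the data. The steps were tested on simulated data.

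Named genes were PTDSS2, PTDSS1 and PISD, the 15 largest rises and 15 largest falls (called, mean of at least 5 CPM, no overlap, outside 4 lists of stress, sterol, fatty acid and immediate early genes), the 6 largest gains and losses in TPM, near-silent genes that came on (under 1 CPM in every vehicle library, at least 3 CPM in every inhibitor library), and up to 4 members of each of 65 lists with the smallest adjusted p. Genes outside that rule, such as other list members, are named after their values were seen. The members and lists were chosen with earlier results of these data known. Some genes that the rule selects are not reported here.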

Additional observations from a re-analysis of the deposited data

Results flagged for a closer look

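Among the 29 described genes with the largest changes, 2 changed in opposite directions in the knockouts of HCT116 and A375. IGFBP2 rose in HCT116, and in A375 it fell from 109, 120 and 112 CPM to 90.5, 94.9 and 86.8 CPM. The HCT116 effect minus the A375 effect was 2.06 ± 0.06 on the log2 scale (edgeR adjusted p = 1.01e-50, 24 libraries). ITGB8 fell in HCT116, and in A375 it rose from 111, 101 and 109 CPM to 244, 241 and 248 CPM. The difference of the effects was -3.29 ± 0.22 (edgeR adjusted p = 1.46e-13). In both genes and both lines the vehicle and inhibitor libraries did not overlap, which for HCT116 the selection required. Each line is represented by 1 knockout clone, so line and clone cannot be told apart.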

How the results depend on the processing

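The knockout count of 2249 rises and 2640 falls was 1642 and 1989 with DESeq2 and 2241 and 2564 with limma-voom. Leaving out 1 library at a time gave 1873 to 2014 rises and 2221 to 2393 falls. For the knockout effect minus the parent effect the range was 1215 to 1342 upward and 1526 to 1740 downward, and DESeq2 called 937 upward against 1455. The cause was not tested. With libraries thinned to 6211624 counts, a setting chosen after seeing the data, the knockout count was 2047 and 2355. Replicates with the same number did not deviate together (correlations -0.013, -0.025 and 0.046), so the numbers were not taken to pair the samples. A replicate block gave 2296 rises and 2677 falls, and 1515 and 1900 for the difference from the parent, with 4871 knockout calls shared with the fit without it. Of 286 results on named genes none was reversed where it could be recomputed, and at most 5 lost their call under any one alternative. The filter at a mean of 5 CPM gave values for 282 of them. List medians near 0 (BCL2 family, TGF-beta and BMP) changed sign in some. Depth of 6211629 to 9108761 counts limits genes of a few CPM: 120 of the 213 large rises and 23 of the 40 large falls had a mean under 5 CPM.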
